A study of Homo sapiens with 114 samples.

Results

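The genes described here are 35 aminoacyl-tRNA synthetases, chosen by name: 19 cytosolic or dual enzymes and 16 mitochondrial enzymes, whose symbols end in 2. They were followed in HK-2 cells, an immortalized human line from the renal proximal tubule, on 114 Affymetrix arrays that represent 19775 genes. A probe set that carries 1 gene symbol was found for 32 of the 35, made up of 17 cytosolic and 15 mitochondrial members. MARS1, QARS1 and TARS2 lie on probe sets that carry a second symbol, and no value is given for them. All 32 passed the filter on low values in every comparison.

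The study exposed the cells to 9 compounds, given here by the abbreviations of the labels. Each of the 26 treated groups and 12 vehicle control groups had 3 arrays from biological replicates, and nothing in the labels ties them to separate days or thaws, so p-values measure the spread between these cultures. High and low doses were used for Aa, Nnm and Kbr (24 and 48 h) and for Ota (24 and 72 h), with no concentration in the labels. CsA, Fk, Ra, CdCl and Di had 1 dose, read at 12 and 48 h. Control cultures were shared by Nnm with Kbr, by Fk with Ra and by CdCl with Di, and all groups are 1 cell line in medium with growth factor and hormone supplements, treated near confluence. Of 16 epithelial and proximal tubule markers, 8 had a control median above log2 4, among them KRT8, KRT18, EPCAM, PAX8 and DPP4. The transport genes LRP2, CUBN, AQP1, SLC5A2 and SLC22A6 were at background, as were 13 of 14 markers of other cell types, the exception being COL1A1.

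Aminoacyl-tRNA synthetases attach each amino acid to its tRNA, and so set up both cytosolic protein synthesis and the synthesis of the few proteins encoded by mitochondrial DNA. All of the members are nuclear genes, and the mitochondrial enzymes are imported. Many cytosolic synthetase genes are known targets of ATF4, the transcription factor of the integrated stress response that is induced by amino acid shortage and by stress of the endoplasmic reticulum, through C/EBP-ATF response elements. WARS1 is also known as an interferon-induced gene. KARS1 and GARS1 are known to supply both compartments, which is why the first set is called cytosolic or dual.

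Promoter sequence was taken from RefSeq (GRCh38.p14), in windows of 250 bases before to 50 after each start. Only the 250 bases before the start were searched, in the members and in all windows alike. A window was found for 30 of the 35 members, all but AARS2, LARS1, VARS1, VARS2 and YARS1. The letters TGATGNAA, a form of the C/EBP-ATF response element, occurred on either strand in 3 of 16 cytosolic members (AARS1, IARS1 and GARS1) and in 1 of 14 mitochondrial members (YARS2), against 3.14% of all 35116 windows. All motifs were searched on both strands, and a member was counted once over all of its windows, so its share and that of single windows are not fully alike. AARS1, at chr16:70289507-70289756 on the minus strand, is shown because it is the cytosolic member with the largest fall, and IARS1, at chr9:92293698-92293757 on the minus strand, because its match lies nearest its start among these. Capitals mark the match.
AARS1: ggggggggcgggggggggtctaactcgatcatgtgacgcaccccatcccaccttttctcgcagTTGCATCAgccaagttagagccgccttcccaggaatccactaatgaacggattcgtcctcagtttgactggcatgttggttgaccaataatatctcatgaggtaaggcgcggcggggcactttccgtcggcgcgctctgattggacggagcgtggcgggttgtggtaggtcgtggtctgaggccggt
IARS1: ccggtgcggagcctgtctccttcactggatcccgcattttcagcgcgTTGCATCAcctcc

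The ETS motif CCGGAAG was found in 9 of 16 cytosolic members and in 7 of 14 mitochondrial members, against 8.52% of all windows. HARS1 and HARS2, the cytosolic and mitochondrial histidine enzymes, are transcribed away from each other, and the 84 bases between their starts (chr5:140691371-140691454, written on the plus strand, the strand of HARS2) hold 2 such matches, in capitals. MARS2, the mitochondrial methionine enzyme and the member with the largest rise, holds 2 matches to GCGC, any base, then TGCGC, a form of the NRF1 site, in the 150 bases before its start (chr2:197705219-197705368, plus strand). That motif was present in 2 of 16 cytosolic members, 2 of 14 mitochondrial members and 5.07% of all windows. The letters TGACGTCA, a cyclic AMP response element, were in 0 members and in 1.65% of windows. A match describes the letters only, and binding was not measured.
HARS1-HARS2: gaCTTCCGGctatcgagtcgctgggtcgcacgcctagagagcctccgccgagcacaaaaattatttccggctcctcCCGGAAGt
MARS2: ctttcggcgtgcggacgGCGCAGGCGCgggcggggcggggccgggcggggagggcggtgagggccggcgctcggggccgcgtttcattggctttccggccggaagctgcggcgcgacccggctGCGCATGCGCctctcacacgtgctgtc

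Values are GCRMA log2 levels, so a difference of 1 is a doubling, and changes are treated minus control ± standard error from limma's fit of the control family, 3 arrays against 3. A gene was called when limma's p, adjusted by the Benjamini-Hochberg method across every gene tested in that comparison, fell under 0.05. Upper quartiles of the arrays lay between 6.73 and 7.178, except for 4 arrays: replicate 2 of Ra 48 h at 6.091 and the 3 arrays of Ota high 24 h at 6.319 to 6.593. Results that rest on these arrays are given with that in view. Signal over background limits SARS2 and MARS2, whose control medians were 5.89 and 5.04, and a level under log2 4 is called background. Where treated arrays stood there, the difference is the measured one and gives no settled size.

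Over the 26 comparisons the cytosolic members were called higher 56 times (12.7% of 442) and lower 76 times (17.2%). The mitochondrial members were called higher 29 times (7.44% of 390) and lower 86 times (22.1%). Over all genes these shares were 11.8% and 15.1%. With quantile normalization the mitochondrial counts were 41 higher and 74 lower, and the cytosolic counts 54 and 74. The shares of all genes were not totalled under that setting, so 11.8% and 15.1% are no reference for these counts. No member was called in 5 comparisons, those of CsA and Fk at both times and Ra at 12 h, where limma called 0.0% (CsA 12 h, Fk 48 h), 0.00925% (CsA 48 h), 0.00918% (Fk 12 h) and 0.0367% (Ra 12 h) of all genes. At an unadjusted p under 0.05 these 5 held 0, 5, 1, 0 and 2 members, in the order CsA 12 h, CsA 48 h, Fk 12 h, Fk 48 h and Ra 12 h. With the replicate number as a block, by which the CsA arrays pair, 206 of 10806 genes were called in CsA 48 h, but 0 members.

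**Figure D1:**
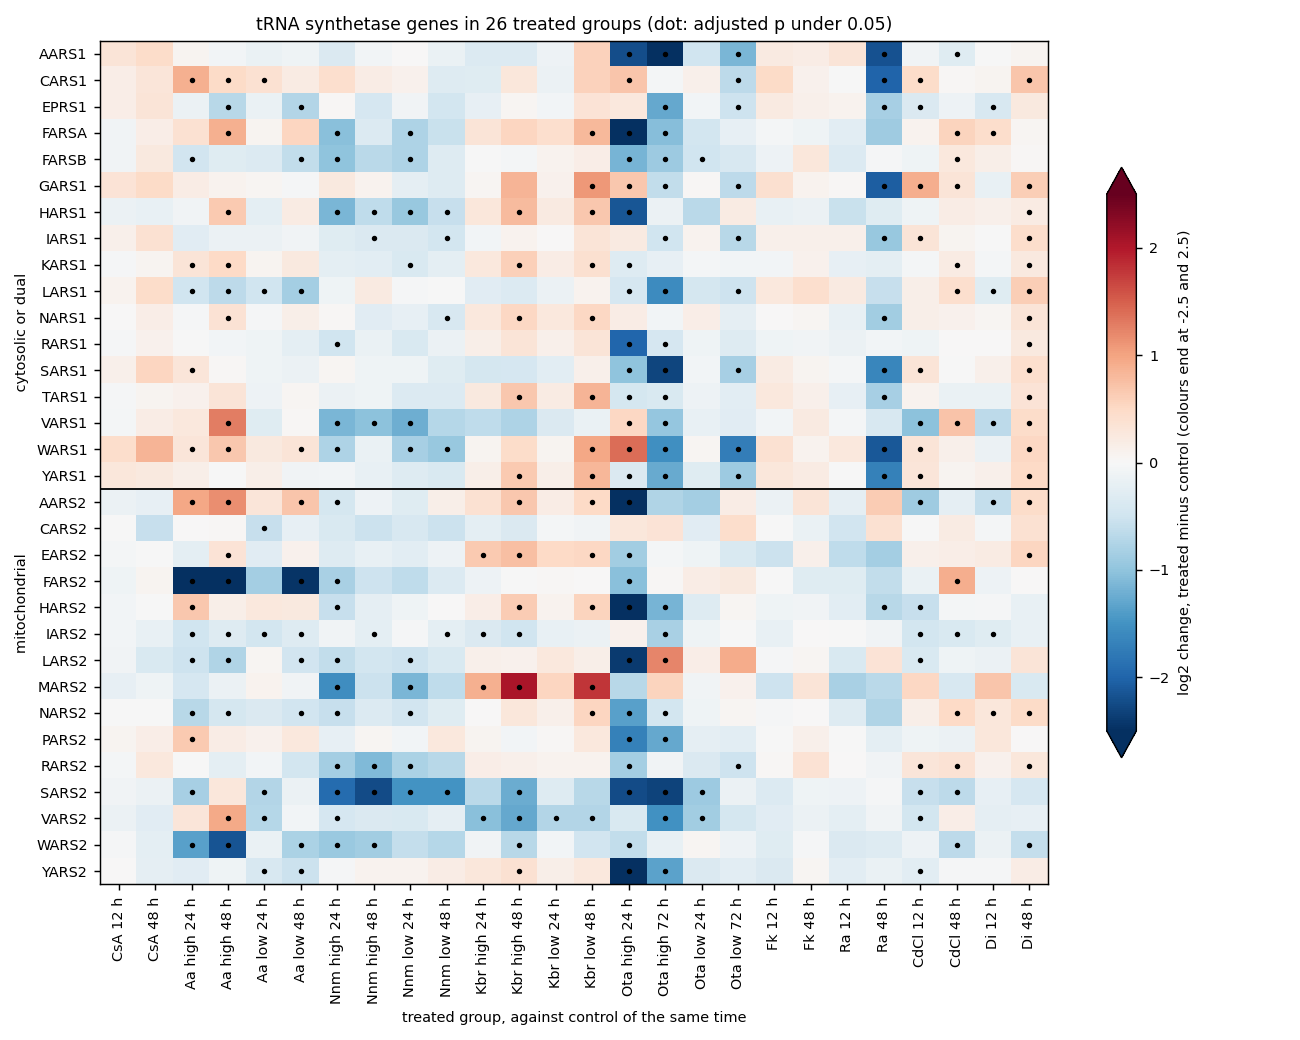
Heat map of the log2 change of 32 synthetase genes (rows, cytosolic or dual above the line, mitochondrial below) in 26 treated groups against controls of the same time (columns), with a dot where limma's adjusted p was under 0.05. The colour scale is capped at both ends. The largest measured falls are FARS2 with Aa high, where it stood at background, HARS2, FARSA and YARS2 with Ota high at 24 h, and AARS1 with Ota high at 72 h, and the largest rise is MARS2 with Kbr high at 48 h.

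**Figure D2:**
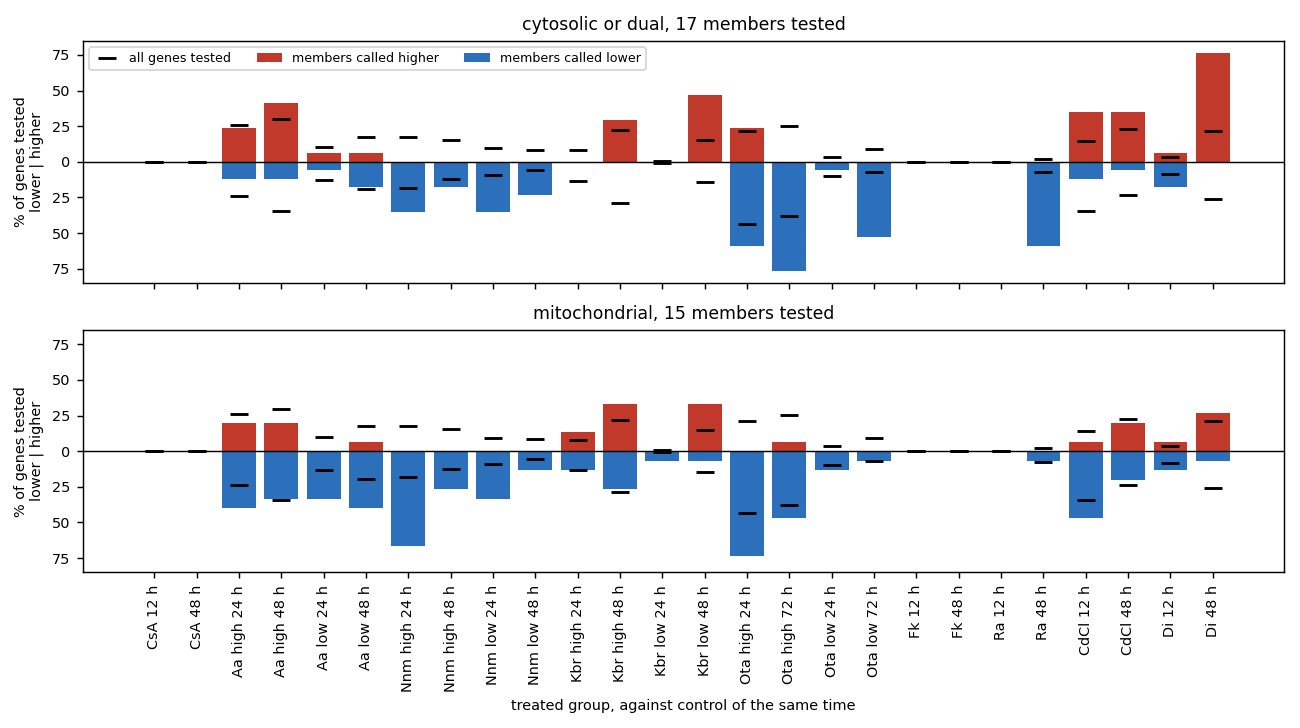
Share of the 17 cytosolic or dual members (top) and the 15 mitochondrial members (bottom) called higher (red, upward) or lower (blue, downward) in each comparison, in percent of the members tested. Black marks give the same shares over all genes. The tallest red bar is the cytosolic set in Di 48 h, 13 of 17.

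The control cultures themselves differed between times in the cytosolic set. Over the longer intervals, 12 to 48 h or 24 to 72 h, the same 9 of 17 cytosolic members were called higher at the later time in each of 4 control families that share no arrays: AARS1, CARS1, EPRS1, GARS1, IARS1, NARS1, SARS1, WARS1 and YARS1. How many of all genes were called higher in all 4 families was not counted, so this overlap has no reference. The number shared depended on settings and arrays: it was 7 with no filter and with the mean of probe sets, 6 with only the compared arrays, 6 without any 1 of 5 of the 6 CsA controls (all but replicate 1 at 48 h), 7, 4 and 6 without replicates 1, 2 and 3 of the Fk and Ra controls at 12 h, and 3 (AARS1, CARS1 and SARS1) without replicate 1 or 2 of those at 48 h. The 9 genes charge tRNA with alanine, cysteine, glutamate and proline, glycine, isoleucine, asparagine, serine, tryptophan and tyrosine. AARS1 read 9.27, 9.32 and 9.18 in the CdCl and Di controls at 12 h and 11.36, 11.37 and 11.58 at 48 h. In the Ota controls it read 9.68, 9.90 and 9.34 at 24 h and 11.60, 11.49 and 11.70 at 72 h. The times did not overlap, and the differences were 2.18 ± 0.115 (adjusted p = 1.29e-09) and 1.96 ± 0.238 (adjusted p = 1.88e-05). WARS1 was higher by 2.19 ± 0.0799 and 2.30 ± 0.214 in the same families.

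Between 24 and 48 h the controls stayed close in this set. AARS1 read 9.76, 9.70 and 9.67 at 24 h and 9.80, 9.67 and 9.72 at 48 h in the Aa controls, which overlap. No member was called in the Aa controls (1.25% of all genes were), and 4 were with the replicate number as a block, by which the arrays of that family pair. In the Nnm and Kbr controls 1 was called, HARS1, which fell by 0.54 ± 0.123 (adjusted p = 0.0431; 0.598% of all genes were called), and its call was lost with quantile normalization (adjusted p = 0.0882) and without some arrays. For the longer intervals the shares of all genes called were 13.5% (CsA), 16% (Fk and Ra), 28.8% (Ota) and 48.9% (CdCl and Di), and the shares called higher 6.89%, 7.8%, 13.6% and 19.7% in that order. In the order CsA, Fk and Ra, Ota, and CdCl and Di, 9, 9, 10 and 12 of 17 cytosolic members were called higher and 1, 1, 0 and 2 lower. Of 15 mitochondrial members 0, 0, 0 and 2 were called higher and 1, 0, 1 and 4 lower. LARS2 fell by 0.97 ± 0.206 in the CsA controls and by 0.93 ± 0.134 in the CdCl and Di controls, and CARS2 fell by 0.98 ± 0.217 in the Ota controls and by 1.05 ± 0.166 in the CdCl and Di controls. MARS2 and PARS2, for methionine and proline, were called higher in the CdCl and Di controls, by 0.83 ± 0.272 and 0.54 ± 0.151. The mean level of the cytosolic set minus that of the mitochondrial set went from 2.41 to 2.46 at 12 h to 3.37 to 3.39 at 48 h in those controls. In the Ota controls it went from 2.43 to 2.70 at 24 h to 3.39 to 3.55 at 72 h. These contrasts between controls were chosen after the levels had been seen.

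Every later comparison with 48 h or 72 h controls of these families is read against those raised levels. Ra at 48 h had 10 of 17 cytosolic members lower and 0 higher, and 1 of 15 mitochondrial members lower, HARS2, against 9.33% of all genes called, 7.46% lower and 1.87% higher. The median change was -0.87 for the cytosolic and -0.16 for the mitochondrial set, and after quantile normalization -0.65 and 0.05. AARS1 read 10.34, 8.38 and 9.29 with Ra and 12.16, 11.62 and 10.79 in the controls and fell by 2.19 ± 0.438 (4.55-fold, adjusted p = 0.0145). GARS1 read 11.89, 10.26 and 10.70 against 13.30, 13.30 and 12.40, and CARS1 10.21, 8.44 and 9.07 against 11.41, 11.33 and 10.99. Neither pair of groups overlapped, and these fell by 2.05 ± 0.394 and 2.00 ± 0.358. WARS1 fell by 2.11 ± 0.487, YARS1 by 1.68 ± 0.335 and SARS1 by 1.62 ± 0.311. With the mean of probe sets the call of YARS1 was lost (-0.63, adjusted p = 0.192). At 12 h the Fk and Ra controls had read 9.46, 9.24 and 9.52 for AARS1, so the Ra cultures at 48 h stood around the level of the controls at 12 h. KARS1 and RARS1, for lysine and arginine, read 12.72 and 11.35 on average with Ra and 12.97 and 11.43 in the controls, and were not called.

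Replicate 2 of Ra 48 h, the array of low upper quartile, was the lowest of its group for each of these 6 members. Without it 7 cytosolic members were called lower and AARS1 fell by 1.71 (adjusted p = 0.0361). Without replicate 1 or without replicate 2 of the 48 h controls 0 members were called, and AARS1 then stood at -1.87 and -2.14 (adjusted p = 0.0762 and 0.0677). HARS2 fell by 0.69 ± 0.208 (adjusted p = 0.0487) with all arrays and stood at -0.39 (adjusted p = 0.0952) without treated replicate 2. Fk, given in the same experiment, read 12.36, 11.67 and 11.07 for AARS1 at 48 h and overlapped the controls. No difference between the 48 and 12 h responses to Ra passed the threshold for a member (0.0459% of all genes were called), while 8 members passed it without treated replicate 1 at 48 h.

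Of 30 ATF4 target genes outside the synthetases, 25 were lower and 0 higher with Ra at 48 h, with a median of -1.86 against -0.19 over all genes. This count too rested on single arrays: it was 4 and 0 without replicates 1 and 2 of the 48 h controls, 11 and 13 without treated replicates 2 and 3, 14 with no filter and 0 with only the compared arrays, while the median stayed between -1.45 and -2.37. Over all genes 67 and 25 were called without those controls and 0 with only the compared arrays, in place of 1016. The cystine transporter gene SLC7A11 fell by 3.68 ± 0.783, the stress factor gene DDIT3 by 3.65 ± 0.802 and CTH, of cysteine synthesis, by 3.90 ± 0.943. Of 26 cytosolic translation factor genes 2 were lower and 0 higher.

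Ota at the low dose for 72 h had 9 of 17 cytosolic members lower and 0 higher, and 1 of 15 mitochondrial members lower, against 16% of all genes called, 7.02% lower and 9.01% higher. The medians were -0.51 and -0.01. WARS1 read 9.83, 10.76 and 10.06 with Ota and 11.97, 11.65 and 12.20 in the controls and fell by 1.72 ± 0.214 (3.31-fold, adjusted p = 9.2e-05). AARS1 fell by 1.14 ± 0.238, from 11.60, 11.49 and 11.70 to 10.11, 10.82 and 10.45, and YARS1 by 0.90 ± 0.139. In all 3 genes the groups did not overlap, but YARS1 was not called with the mean of probe sets (-0.33, adjusted p = 0.251). The response to the low dose differed between 72 and 24 h for 3 members, WARS1, CARS1 and IARS1 (6.3% of all genes), 5 without treated replicate 2 at 72 h, and CARS1 not with the mean of probe sets (adjusted p = 0.0789). RARS2, the mitochondrial arginine enzyme, was the 1 mitochondrial member called and fell by 0.51 ± 0.143 (adjusted p = 0.0232), or stood at -0.16 and uncalled (adjusted p = 0.21) with the mean of probe sets. Its call was lost whichever array was left out (limma's adjusted p 0.055 to 0.0808). Of the cytosolic members lower with Ra at 48 h, 8 of 10 (80.0%) were also lower here, which is 8 of the 9 (88.9%) called with this dose. The pair of comparisons shares no arrays, and the overlap among all genes was not counted. Without replicate 1 of Ota low 72 h, 5 members were called. Of the 30 ATF4 targets 11 were lower and 0 higher, and DDIT4 fell by 1.51 ± 0.137.

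At the high dose of Ota for 72 h, 13 of 17 cytosolic members were lower and 0 higher, and 7 of 15 mitochondrial members were lower and 1 higher, against 63.2% of all genes called, 37.9% lower and 25.3% higher. AARS1 read 8.14, 7.41 and 8.23 against 11.60, 11.49 and 11.70, and fell by 3.67 ± 0.238, the largest fall of a cytosolic member (12.75-fold, adjusted p = 5.13e-09). SARS1 read 10.49, 10.27 and 10.50 against 12.68, 12.65 and 12.83 and fell by 2.30 ± 0.188. LARS1, the leucine enzyme, fell by 1.56 ± 0.164, and EPRS1, which joins the glutamate and proline enzymes in 1 chain, by 1.28 ± 0.128. Groups did not overlap for any of these 4. AARS1, at 7.93 on average, stood below the 24 h controls too, which had read 9.34 to 9.90. The median changes were -0.90 (cytosolic) and -0.45 (mitochondrial), against -0.15 over all genes. After quantile normalization they were -0.65 and -0.13 against 0.13, a shift of 0.28 over all genes. The ACTB probe sets at the 3 prime end exceeded those at the 5 prime end, which reflects RNA integrity, by 1.661 to 2.299 with this dose and 1.161 to 1.51 in its controls, and the part of this in the changes was not tested.

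Among the mitochondrial members at this dose and time, SARS2 fell by 2.31 ± 0.243 to background, from 5.57, 5.74 and 5.43 to 2.98, 3.41 and 3.42. VARS2, the mitochondrial valine enzyme, read 7.19, 7.14 and 7.05 against 8.61, 8.67 and 8.65 and fell by 1.52 ± 0.172. LARS2 was the exception, with 9.19, 8.89 and 8.60 against 7.61, 7.93 and 7.47, a rise of 1.23 ± 0.457 (adjusted p = 0.0283) whose call was lost in at least 1 fit without an array (highest adjusted p 0.0896). Of the 30 ATF4 targets 25 were lower and 1 higher, among which DDIT3 fell by 4.19 ± 0.425 and CBS fell by 5.56 ± 0.135, to background.

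**Figure D3:**
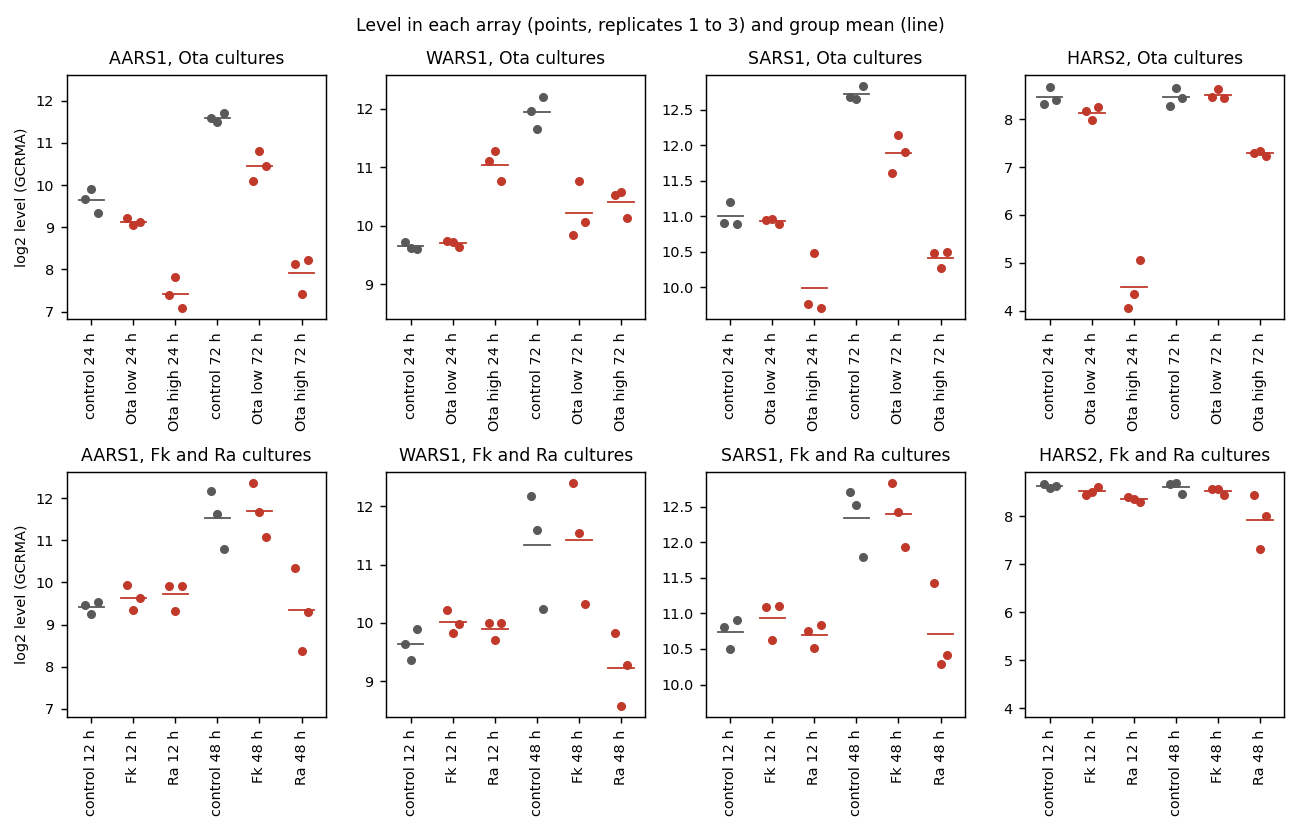
Level of AARS1, WARS1, SARS1 and HARS2 in each array (points, log2) with the group mean (line), in the Ota cultures (top) and the Fk and Ra cultures (bottom), controls in grey and treated groups in red. AARS1 in the controls lies between 9.24 and 9.90 early and between 10.79 and 12.16 late, and with Ra at 48 h it lies between 8.38 and 10.34.

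The high dose of Ota for 24 h gave another pattern. Here 11 of 15 mitochondrial members were lower and 0 higher, and 10 of 17 cytosolic members were lower and 4 higher, against 65.0% of all genes called, 43.6% lower and 21.4% higher. The medians were -1.04 (mitochondrial) and -0.36 (cytosolic) against -0.29 over all genes. With quantile normalization they were -0.57 and -0.31 against 0.14, a shift of 0.43 over all genes. Then 8 mitochondrial members were lower and 1 higher, against 3401 lower and 4392 higher of 11252 genes. The 3 treated arrays are among those of low upper quartile, whose part in these changes was not tested.

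HARS2 read 4.05, 4.35 and 5.06 with Ota and 8.32, 8.67 and 8.40 in the controls and fell by 3.97 ± 0.199 (15.7-fold, adjusted p = 2.27e-10). YARS2, the mitochondrial tyrosine enzyme, read 5.81, 5.97 and 6.21 against 8.87, 8.93 and 9.00 and fell by 2.93 ± 0.135. AARS2, for alanine, fell by 2.61 ± 0.364. None of these groups overlapped. In the cytosolic set FARSA, the catalytic subunit of the phenylalanine enzyme, read 5.14, 4.74 and 5.32 against 8.91, 8.54 and 8.43 and fell by 3.56 ± 0.284. HARS1 and RARS1 fell by 2.14 ± 0.235 and 1.99 ± 0.17. WARS1 rose by 1.40 ± 0.214 (2.64-fold, adjusted p = 3.32e-05), from 9.72, 9.61 and 9.60 to 11.10, 11.28 and 10.76, with no overlap. CARS1 and GARS1 rose by 0.69 ± 0.152 and 0.67 ± 0.153, and VARS1 by 0.51 ± 0.19 with overlapping groups, a call lost with the mean of probe sets (0.33, adjusted p = 0.153). IARS2, at 12.37, 12.35 and 12.34 against 12.31, 12.06 and 12.36, overlapped its controls and was not called. Of 54 mitochondrial ribosomal protein genes 42 were lower and 2 higher, and of 30 ATF4 targets 13 were lower and 6 higher.

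The difference of response between 72 and 24 h was itself called for 23 of 32 members at the high dose of Ota, against 53.4% of all genes. WARS1, GARS1 and VARS1 were higher at 24 h and lower at 72 h, and the differences were -2.93 ± 0.302, -1.29 ± 0.216 and -1.48 ± 0.268. LARS2 went from lower to higher, by 3.63 ± 0.646. HARS2 was less reduced at 72 h, by 2.81 ± 0.282. The high dose differed from the low in 24 members at 24 h (58.9% of all genes) and in 18 at 72 h (57.8%). At 24 h the low dose had 3 members lower, SARS2, VARS2 and FARSB, against 13.7% of all genes, 9.99% lower and 3.72% higher, and SARS2 fell by 0.91 ± 0.243, from 6.09, 5.31 and 5.90 to 5.21, 4.30 and 5.06. FARSB, the other subunit of the phenylalanine enzyme, fell by 0.49 ± 0.153, and its call was lost without some arrays, as was that of SARS2, so that without replicate 1 or 3 of the controls or replicate 2 of the treated group 1 member was called.

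At its high dose Aa lowered FARS2 and WARS2 of the mitochondrial set most among the members by measured difference. For 24 h, 6 of 15 mitochondrial members were lower and 3 higher, and 2 of 17 cytosolic members were lower and 4 higher, against 49.9% of all genes called, 23.9% lower and 26% higher. At 48 h the counts were 5 and 3, and 2 and 7, against 64.3% of all genes, 34.5% lower and 29.8% higher. At 48 h the ACTB probe sets of the 3 prime end exceeded those of the 5 prime end by 1.139 to 1.694 in the treated arrays and 0.771 to 1.15 in the controls, and the part of this in the changes was not tested. FARS2, the mitochondrial phenylalanine enzyme, read 3.12, 3.06 and 3.07, at background, at 24 h against 7.97, 8.01 and 8.06 and fell by 4.93 ± 0.372 (adjusted p = 1.54e-07). At 48 h it read 4.03, 3.06 and 2.90 against 7.72, 7.99 and 7.85. A second FARS2 probe set went from 6.79 to 5.37 and from 7.00 to 5.39 on average at these times, changes of -1.42 and -1.61 with each average above background, so the direction is shared and the size is not settled. WARS2, the mitochondrial tryptophan enzyme, read 6.11, 6.00 and 6.94 at 48 h against 8.31, 8.78 and 8.45 and fell by 2.17 ± 0.276, after 1.35 ± 0.276 at 24 h. Treated and control arrays did not overlap in these genes.

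Some members rose with Aa. AARS2 read 8.45, 8.22 and 8.32 at 24 h against 7.26, 7.46 and 7.39, a rise of 0.96 ± 0.164, and rose by 1.16 ± 0.164 at 48 h. CARS1 rose by 0.89 ± 0.112 at 24 h, from 9.50, 9.52 and 9.63 to 10.37, 10.41 and 10.56. VARS1 rose by 1.27 ± 0.393 (adjusted p = 0.0104) at 48 h, to 10.11, 9.36 and 9.94 from 8.86, 7.97 and 8.77, although without 1 array its highest adjusted p was 0.0575. VARS2 rose by 0.95 ± 0.161. At 48 h AARS2 read 8.07, 7.96 and 8.22 against 7.19, 6.72 and 6.86. EPRS1 read 10.55, 10.77 and 10.67 at that time against 11.29, 11.53 and 11.27, and fell by 0.70 ± 0.128. LARS1 fell by 0.66 ± 0.105 at 48 h and by 0.49 ± 0.105 at 24 h, from 11.00, 10.96 and 10.91 to 10.49, 10.42 and 10.49. Treated and control arrays of these 3 genes did not overlap. The 3 called ATF4 targets of largest change with Aa high at 48 h were ATF3, STC2 and PPP1R15A, which rose by 6.89, 3.58 and 3.46. With Aa low at 48 h they were ATF3 and STC2, which rose by 3.62 and 1.94, and SLC7A11, which fell by 3.15.

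At the low dose of Aa, 7 members were called at 24 h, 6 of them lower (23.2% of all genes were called, 13% lower and 10.2% higher), and 11 at 48 h, 9 of them lower (37.0%, 19.3% and 17.7%). Without replicate 3 of the 24 h controls the first count was 4. LARS1 led the cytosolic falls at both times. It read 10.41, 10.56 and 10.43 at 24 h against 11.00, 10.96 and 10.91, and 10.10, 10.35 and 9.98 at 48 h against 11.04, 11.05 and 10.90, the latter a change of -0.85 ± 0.105 (adjusted p = 3.35e-05). SARS2 read 5.92, 5.51 and 5.80 at 24 h against 6.48, 6.16 and 6.80 and fell by 0.74 ± 0.199, again with no overlap. AARS2 rose by 0.70 ± 0.164 at 48 h, to 7.91, 7.29 and 7.66. FARS2 read 6.59, 7.90 and 6.97 at 24 h, each under the controls at 7.97 to 8.06, but was not called (-0.86 ± 0.372, adjusted p = 0.112). At 48 h it fell by 2.46 ± 0.372, to 4.76, 6.31 and 5.12. High minus low dose was -4.07 ± 0.372 for FARS2 at 24 h and -2.06 ± 0.372 at 48 h, and -1.19 ± 0.276 and -1.37 ± 0.276 for WARS2. VARS2 was higher with the high than with the low dose by 1.01 ± 0.161 and 1.03 ± 0.161. In all, 10 members differed between doses at 24 h (26.4% of all genes) and 9 at 48 h (44.8%), and with the replicate number as a block 17 and 15. The response differed between 48 and 24 h for 6 members at the high dose (18.8% of all genes), among them HARS1 by 0.74 ± 0.144 and SARS2 by 1.11 ± 0.282, and for 0 at the low dose (1.31%), with the block for 12 and 3. The 6 of the high dose became 2 without replicate 3 of the 24 h controls or replicate 1 of the 48 h controls, and 3 without replicate 2 of the 48 h controls or replicate 1 of either treated group. The 10 between doses at 24 h became 6 without replicate 2 of the low dose, and the 9 at 48 h became 5 without replicate 3 of the high dose.

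FARS2, LARS2, NARS2 and WARS2 have the longest gene spans among the 32 members, 522, 161, 139 and 109 kb in RefSeq, and all 4 were called lower with Aa high at both times. Across the 32 genes, which are not independent replicates and share the same arrays, change and span had a Pearson r of -0.59 at 24 h and -0.67 at 48 h on the log scale of span, and Spearman's rho was -0.53 and -0.66. Without FARS2 r was -0.43 and -0.55. With the low dose of Aa r was -0.32 at 24 h and -0.68 at 48 h, and -0.15 and -0.57 without FARS2. With the high dose of Ota r was 0.32 at 24 h and 0.24 at 72 h, and with the low dose 0.43 and 0.037. Span and change were not compared over all genes, so nothing here is particular to the synthetases. The 4 longest members are all mitochondrial, and the part of the set in this relation was not tested.

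**Figure D4:**
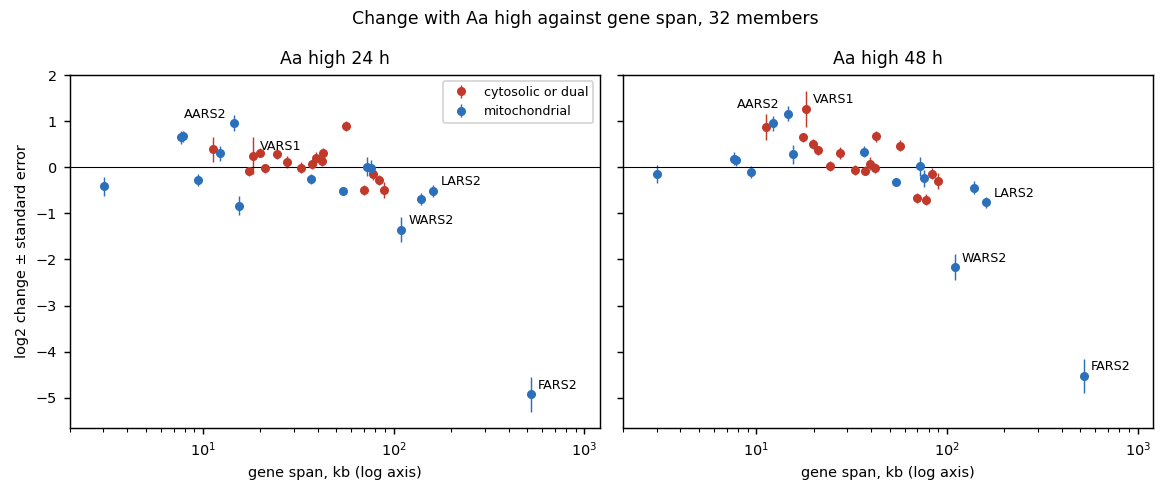
Log2 change ± standard error with the high dose of Aa at 24 h (left) and 48 h (right) against the genomic span of each of 32 members in kb (log axis), cytosolic or dual in red and mitochondrial in blue. FARS2, of 522 kb, lies lowest at both times, and WARS2, of 109 kb, is next.

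Nnm lowered members of both sets and raised none. At the high dose for 24 h, 10 of 15 mitochondrial and 6 of 17 cytosolic members were lower, against 35.9% of all genes called, 18.4% lower and 17.6% higher. At 48 h 4 and 3 were lower (27.7% of all genes called, 12.3% lower and 15.4% higher). At the low dose 5 and 6 were lower at 24 h (18.5%, 9.13% and 9.39%) and 2 and 4 at 48 h (14.1%, 5.73% and 8.39%). SARS2 was lower in all 4 comparisons. It read 4.05, 5.31 and 4.18 with the high dose at 24 h against 6.71, 5.89 and 6.69, and 4.14, 4.48 and 3.52 at 48 h against 6.34, 5.93 and 6.58. The groups did not overlap, and SARS2 fell by 1.92 ± 0.323 and 2.24 ± 0.323 (adjusted p = 0.000237 and 7.86e-05). With the low dose it read 4.92, 5.11 and 4.81 at 24 h and 4.99, 4.92 and 4.42 at 48 h, and fell by 1.48 ± 0.323 and 1.50 ± 0.323. HARS1 fell in all 4 as well, by 1.13 ± 0.123, 0.63 ± 0.123, 0.95 ± 0.123 and 0.58 ± 0.123 in the order high 24 h, high 48 h, low 24 h and low 48 h. SARS2 and HARS1 kept these calls whichever array was left out.

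VARS1, the cytosolic valine enzyme, read 7.69, 7.31 and 8.03 with the high dose at 24 h against 9.18, 8.18 and 9.12, and fell by 1.15 ± 0.35 (adjusted p = 0.0143; highest without 1 array 0.0671). With the low dose VARS1 read 7.61, 7.53 and 7.69 at 24 h and fell by 1.22 ± 0.35, and WARS1 read 8.46, 8.64 and 8.62 at 48 h against 9.72, 9.29 and 9.52 and fell by 0.94 ± 0.287. Both stood below every control array. MARS2 fell by 1.55 ± 0.306 with the high dose at 24 h, to 3.49, 4.57 and 4.05 from 5.69, 5.03 and 6.03. FARSA and FARSB, the 2 subunits of the cytosolic phenylalanine enzyme, fell by 1.05 ± 0.229 and 1.00 ± 0.266, and RARS2 by 1.10 ± 0.246 at 48 h. In FARSB, WARS2 and RARS2, replicate 2 of the high dose stood nearest the controls. Of the 54 mitochondrial ribosomal protein genes 32 were lower and 1 higher at the high dose for 24 h, and MRPL12 fell by 1.85 ± 0.263. WARS1 fell by 0.78 ± 0.287 in the same comparison, but its call was lost whichever array was left out (limma's adjusted p 0.0535 to 0.131). Of 12 interferon-induced genes 4 were higher and 1 lower, and GBP2 rose by 1.73 ± 0.33. No member differed between doses or times of Nnm, where limma called 0.0% of all genes, and at most 2 did when 1 array was left out.

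The counts with Nnm depended on single arrays. At the high dose for 24 h, 7 members were called without treated replicate 1 and 9 without treated replicate 3, in place of 16. At 48 h, leaving out treated replicates 1, 2 and 3 gave 4, 13 and 3 in place of 7. At the low dose for 24 h the count of 11 went to 3 without treated replicate 1 or 3, to 6 without control replicate 1 or 2, and to 2 without control replicate 3. At 48 h the count of 6 went to 2 without treated replicate 1 or 3, to 11 without treated replicate 2, and to 3 without control replicate 1 or 3. With the replicate number as a block, by which these arrays pair, 16 members were called at the high dose and 13 at the low dose at 48 h.

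With Kbr at 48 h the cytosolic members called in the main fit were all higher, while mitochondrial members were called in both directions. At the high dose other settings called cytosolic members lower too. These were 2 with the mean of probe sets, 1 with quantile normalization and 2 with the replicate number as a block, by which these arrays pair. The high dose had 5 of 17 cytosolic members higher and 0 lower, and 5 of 15 mitochondrial members higher and 4 lower, against 51.1% of all genes called, 22.2% higher and 28.9% lower. With the low dose 8 cytosolic members were higher and 0 lower, and 5 mitochondrial members were higher and 1 lower, against 29.4%, 15.2% and 14.3%. MARS2 read 7.15, 7.46 and 6.39 with the high dose against 4.82, 4.98 and 5.05, a rise of 2.05 ± 0.306 (4.14-fold, adjusted p = 9.17e-06), the largest rise of any member. With the low dose it read 6.88, 6.71 and 6.64 and rose by 1.79 ± 0.306. At 24 h it rose by 0.88 ± 0.306 with the high dose, to 6.46, 6.28 and 6.66 from 5.69, 5.03 and 6.03 (limma's highest adjusted p without 1 array 0.217). The treated arrays stood above the controls in all 3 comparisons. VARS2 fell in all 4 Kbr comparisons, by 1.05 ± 0.162 and 1.27 ± 0.162 with the high dose at 24 and 48 h, and by 0.74 ± 0.162 and 0.73 ± 0.162 with the low dose. It read 7.43, 7.40 and 7.75 with the high dose and 8.08, 7.91 and 8.22 with the low dose at 48 h, against 8.46, 8.89 and 9.05. At 24 h it read 7.74, 7.84 and 8.26 and 8.03, 8.25 and 8.49 in the same order, against 8.82, 9.07 and 9.11, with no overlap at either time. SARS2 fell by 1.25 ± 0.323 with the high dose at 48 h.

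In the cytosolic set GARS1 read 12.63, 12.04 and 11.37 with the low dose of Kbr at 48 h against 11.23, 10.63 and 10.94, a rise of 1.08 ± 0.367 (adjusted p = 0.0293; highest without 1 array 0.168). TARS1, the threonine enzyme, rose by 0.86 ± 0.206 and WARS1 by 0.96 ± 0.287, the last with overlapping groups. HARS1 rose by 0.80 ± 0.123 with the high dose, from 9.58, 9.65 and 9.80 to 10.57, 10.45 and 10.40. EARS2, the mitochondrial glutamate enzyme, rose by 0.66 ± 0.164 at 24 h and 0.75 ± 0.164 at 48 h with the high dose, the first not called with the mean of probe sets (0.39, adjusted p = 0.109). Of the 30 ATF4 targets 10 were higher and 1 lower with the low dose at 48 h. With the high dose at 48 h the 3 called targets of largest change went in both directions. ATF3 and SLC7A5 rose by 4.33 ± 1.28 and 3.0 ± 1.19, and CBS fell by 2.94 ± 0.373. Without replicate 1 of that group 9 members were called in place of 14.

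At 24 h Kbr had 4 members called with the high dose, 2 higher and 2 lower (21.6% of all genes, 8.17% higher and 13.4% lower), and 1 with the low dose, VARS2 (1.36% of all genes, 0.671% higher and 0.689% lower). The first count was 8 with the replicate number as a block. The call of VARS2 at the low dose was lost when any of 5 of the 6 arrays was left out (all but replicate 3 of the treated group). Doses differed for VARS2 and IARS2 at 48 h, by -0.54 ± 0.162 and -0.35 ± 0.0843 (8.03% of all genes; 4 members with the block, 0 without replicate 2 of the low dose, and VARS2 not with quantile normalization, adjusted p = 0.262), and for 0 members at 24 h (0.0544%). No member differed between times of Kbr, where 1.89% (high dose) and 0.0% (low dose) of all genes were called.

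Di and CdCl were read against the same controls. With Di at 48 h, 13 of 17 cytosolic members were higher and 0 lower, and 4 of 15 mitochondrial members were higher and 1 lower, against 47.4% of all genes called, 21.4% higher and 25.9% lower. The changes were small, the largest 0.69 ± 0.0798 (1.61-fold, adjusted p = 4.22e-06) in CARS1, from 11.17, 10.99 and 11.25 to 11.82, 11.91 and 11.75. GARS1 rose by 0.62 ± 0.085, LARS1 by 0.61 ± 0.0669 and WARS1 by 0.52 ± 0.0799, each with no overlap. AARS1, EPRS1, FARSA and FARSB were the cytosolic members not called, and AARS1 read 11.60, 11.43 and 11.49 against 11.36, 11.37 and 11.58. EARS2 rose by 0.53 ± 0.114 and WARS2 fell by 0.60 ± 0.1. The medians were 0.35 and 0.01, and with quantile normalization 0.32 and 0.14. WARS2 read 7.89, 8.01 and 7.92 against 8.40, 8.61 and 8.63, below every control. At 12 h Di had 7 members called, 5 of them lower (11.8% of all genes, 8.23% lower and 3.61% higher), and VARS1 fell by 0.65 ± 0.0974 and AARS2 by 0.61 ± 0.147. VARS1 read 7.39, 7.33 and 7.40 and AARS2 7.00, 6.50 and 6.86, both below the controls, which read 8.06, 8.03 and 7.97 and 7.38, 7.47 and 7.33. FARSA rose by 0.43 ± 0.0768, to 8.55, 8.53 and 8.59 from 8.19, 8.03 and 8.17. The count was 3 without control replicate 2 and 4 without control replicate 3. The ACTB difference between the ends was 1.227 to 1.551 with Di at 12 h and 1.822 to 2.086 in the controls, which do not overlap, and the part of this in the changes was not tested.

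CdCl at 12 h had 6 cytosolic members higher and 2 lower, and 1 mitochondrial member higher and 7 lower, against 48.7% of all genes called, 14.5% higher and 34.3% lower. With quantile normalization the mitochondrial counts were 3 and 4, against 2090 higher and 2745 lower of 10997 genes. GARS1 read 12.02, 11.99 and 12.19 against 11.13, 11.26 and 11.08, a rise of 0.91 ± 0.085. VARS1 read 6.99, 7.09 and 6.92 against 8.06, 8.03 and 7.97 and fell by 1.02 ± 0.0974. AARS2 read 6.50, 6.60 and 6.43 against 7.38, 7.47 and 7.33 and fell by 0.88 ± 0.147. Groups did not overlap in these 3. At 48 h 6 cytosolic members were higher and 1 lower, and 3 mitochondrial members were higher and 3 lower (46.4% of all genes, 22.9% higher and 23.5% lower). VARS1 then rose by 0.70 ± 0.0974, to 8.50, 8.38 and 8.09 from 7.70, 7.46 and 7.69, and FARS2 by 0.91 ± 0.175, from 7.17, 7.28 and 7.44 to 8.16, 8.11 and 8.35, while its second probe set changed by 0.071. Of the 30 ATF4 targets 18 were higher and 3 lower with CdCl at 12 h, and 17 and 3 with Di at 48 h. Such counts are printed here for only some comparisons, so they do not show whether targets and synthetases move together.

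On the probe set used VARS1 was lower at 12 h and higher at 48 h with both compounds, and the difference of response was 1.72 ± 0.138 with CdCl and 1.11 ± 0.138 with Di. With the mean of its probe sets the 12 h changes were -0.53 and -0.26 and not called (adjusted p = 0.0628 and 0.491). Those at 48 h were then 0.73 and 0.72 and called, as were the differences, 1.25 and 0.98 (adjusted p = 0.0074 and 0.0255). In all the response differed between 48 and 12 h for 12 members with CdCl (30.4% of all genes) and 15 with Di (33.6%), among them LARS1 by 0.92 ± 0.0946 and AARS2 by 1.07 ± 0.208 with Di. The 2 compounds share their controls, so these values are given side by side only. The mean over the probe sets of EPRS1 went against the probe set used at 12 h with both compounds (0.22 and 0.09 against -0.36 and -0.41), so EPRS1 has no settled direction there, and neither has LARS1 with Di at 12 h (0.03 against -0.31).

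Set against each other, the 2 sets stood further apart in treated than in control arrays in 10 comparisons and closer together in 3, with overlapping arrays in 13. The measure was the mean level of the cytosolic minus that of the mitochondrial members in each array. It was 2.96 to 3.13 with Aa high at 24 h against 2.41 to 2.58 in the controls, and 3.16 to 3.77 with Ota high at 24 h against 2.43 to 2.70. In the other direction it was 2.48 to 2.85 with Ra at 48 h against 3.07 to 3.67, 2.89 to 3.11 with Ota high at 72 h and 2.77 to 3.14 with Ota low at 72 h, both against 3.39 to 3.55. The 10 include CsA, Fk and Ra at 12 h, where no member was called. They also include Aa high at 24 and 48 h, where the mitochondrial mean holds FARS2 at or near background, a fall of no settled size. The median cytosolic minus the median mitochondrial change with Aa high was 0.39 at 24 h and 0.18 at 48 h. How often other sets of genes fail to overlap was not counted. This is a description of these arrays with no test.

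For 13 pairs of a cytosolic and a mitochondrial enzyme of the same amino acid, both were called in the same direction in 35 of 338 cases and in opposite directions in 13. The 13 pairs stand for 12 enzymes, since FARSA and FARSB are subunits of 1 and FARS2 is counted with both. How often other pairs of genes were called alike or opposite was not counted. Many of the comparisons share control arrays, so these counts do not show whether a pair moves together. One of the pair was called in 114 and neither in 176. WARS1 and WARS2 were opposite in 5 comparisons and alike in 1. In Aa high 24 h the call of WARS1 was lost with the mean of probe sets (limma's adjusted p = 0.266) and with quantile normalization (0.0633). It was also lost there whichever array was left out (limma's adjusted p 0.0542 to 0.12). In Aa low 48 h the call of WARS1 was lost with the mean of probe sets (0.221) and that of WARS2 with quantile normalization (0.0568). With Aa high at 48 h WARS1 changed by 0.67 and WARS2 by -2.17, with Di at 48 h by 0.52 and -0.60, and with Ota high at 24 h by 1.40 and -0.62, the last of which became -0.01 with quantile normalization. SARS1 and SARS2 were opposite in 2 comparisons, and LARS1 and LARS2 in 1, Ota high at 72 h (-1.56 and 1.23). HARS1 and HARS2 were called in the same direction in 4 comparisons and in opposite directions in 0. The same counts were 4 and 0 for VARS1 with VARS2, 5 and 0 for FARSB with FARS2, 3 and 0 for RARS1 with RARS2 and 1 and 0 for AARS1 with AARS2. For HARS1 and HARS2 these were Nnm high 24 h (-1.13 and -0.57), Kbr high 48 h (0.80 and 0.64), Kbr low 48 h (0.68 and 0.56) and Ota high 24 h (-2.14 and -3.97). In 9 others 1 of them was called, such as HARS2 with Ota high at 72 h, which fell by 1.16 ± 0.199 beside HARS1 at -0.14 ± 0.235.

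**Figure D5:**
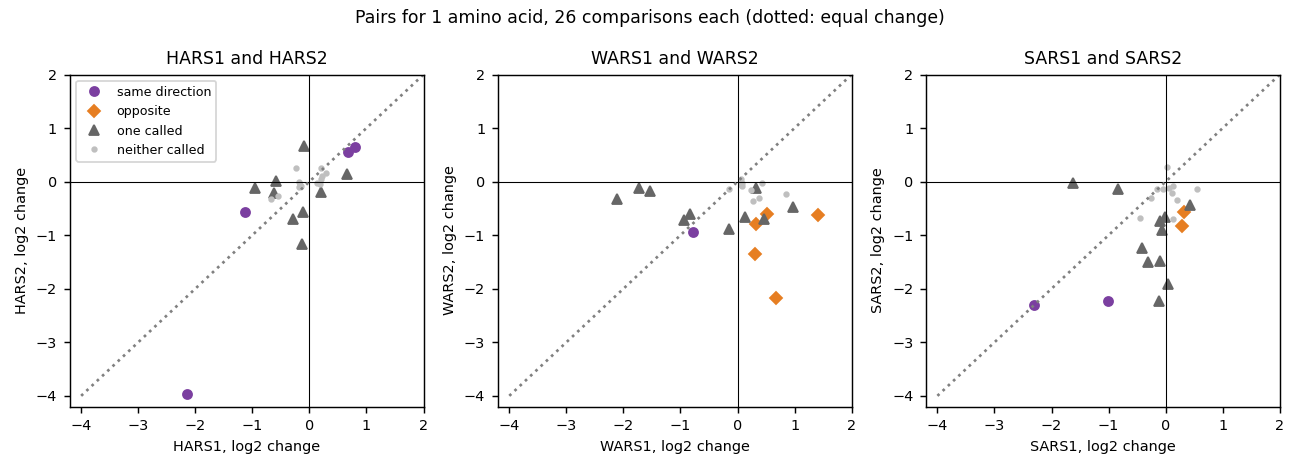
Log2 change of the cytosolic enzyme (horizontal) and the mitochondrial enzyme (vertical) of 3 amino acids, each point 1 of 26 comparisons, marked by whether both members were called in the same or in opposite directions, one or neither. HARS1 and HARS2 have 4 points called in the same direction and 0 opposite, while WARS1 and WARS2 have 5 opposite, some of which were lost under other settings.

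By number of calls in 1 direction, IARS2 and SARS2 led among the members, each lower in 12 of 26 comparisons and higher in 0. Over all genes and comparisons 15.1% were called lower and 11.8% higher, but such tallies were not made for other single genes. Many of the comparisons share control arrays and are not separate trials. IARS2, the mitochondrial isoleucine enzyme, moved little, between -0.81 and 0.11, from control levels of 11.58 to 12.38. SARS2 ranged from -2.31 to 0.28. VARS2 and WARS2 followed with 9 falls each, and VARS2 had 1 rise. In the cytosolic set LARS1 was lower in 8, EPRS1 and FARSB in 7, and WARS1 and VARS1 in 6. WARS1 was also higher in 7, CARS1 and KARS1 in 6 and GARS1 in 5. AARS2 and EARS2 led the rises of the mitochondrial set with 6 and 5. CARS2, the mitochondrial cysteine enzyme, was called in 1 comparison and fell by 0.58 with Aa low at 24 h. Where a called member had another probe set above the filter, the sign was the same in 158 of 175 cases and opposite in 17, and for changes of at least 2-fold in 35 of 36. The exception was YARS1 with Ra at 48 h, whose other probe set, near background, read 4.99 on average with Ra and 4.57 in the controls.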

How the data were processed

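The values are log2 levels per probe set, made by the authors with GCRMA with all arrays normalized together, per the submitters' processing notes and the series description, and were used as deposited. Of 54675 probe sets 41097 carried 1 symbol, 1801 several and 11777 none, and each gene was read from its 1-symbol probe set of highest mean. For each of 6 control families, limma 3.58.1 (R 4.3.3) fitted group means over all arrays of the family, with genes above log2 4 on at least 3 arrays (10806 to 11138 genes), eBayes, and Benjamini-Hochberg adjustment over all genes. The fit was tested on simulated data. Members and lists were chosen with earlier results of these data known. Any member could be named. The rule chose, for values in every array, the members called most often in 1 direction, the largest called rise and fall of each set in each comparison and pairs called in opposite directions (not all are printed), and, from other lists, the 3 called genes of largest change. Alternatives were no filter, the mean of probe sets, quantile normalization, the replicate number as a block, the compared arrays alone, and each array left out. Same-numbered arrays deviated together in every pair of groups in the CsA, Aa and Nnm with Kbr families (lowest r 0.534, 0.28 and 0.139) but not in the remaining families (lowest r -0.0542 for Ota, -0.176 for Fk with Ra and -0.274 for CdCl with Di). The replicate block is therefore read as a pairing in the first 3 only. The main fits used no block in any family, so the standard errors and adjusted p printed from them leave that pairing out. Promoter sequence and spans came from RefSeq (GRCh38.p14), and Python 3.11.15 with pandas 2.3.3, numpy 2.4.6 and scipy 1.17.1 made the tables. Figures used matplotlib 3.10.9.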

Additional observations from a re-analysis of the deposited data

Results flagged for a closer look

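Responses that differed between times were followed up because the difference itself was tested in limma (adjusted p under 0.05). They were found in 6 members with the high dose of Aa (12 with the replicate block), 23 with the high dose and 3 with the low dose of Ota, 12 with CdCl and 15 with Di. Within these, 8 responses were called in opposite directions at the 2 times. With the high dose of Ota the later minus the earlier change was -2.93 for WARS1, -1.48 for VARS1 and -1.29 for GARS1, which were higher at 24 h and lower at 72 h (VARS1 not called at 24 h with the mean of probe sets), and 3.63 for LARS2, which was lower and then higher. On the probe set used VARS1 was lower at 12 h and higher at 48 h with CdCl (difference 1.72) and with Di (1.11), but its call at 12 h was lost with the mean of probe sets, while the differences stayed called. AARS2 and LARS1 did the same with Di, with differences of 1.07 and 0.92, though the direction of LARS1 at 12 h depended on the probe sets. In the Ota, CdCl and Di families the controls themselves differed between times in many of these genes, and the part of that in the differences was not tested. Groups of 3 arrays were not searched for single outlying arrays.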

How the results depend on the processing

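Of 247 calls of members, 221 held with no filter, 219 with quantile normalization, 241 with the replicate block, 173 with only the compared arrays and 147 whichever array was left out. With the mean of probe sets 211 of 246 held and 9 reversed. The number of members called became, with only the compared arrays, 4 for Aa low 24 h, 7 for Aa low 48 h, 4 for Nnm high 24 h, 1 for Nnm high 48 h, 4 for Nnm low 24 h, 3 for Nnm low 48 h, 8 for Kbr high 24 h, 5 for Ota low 24 h, 2 for Ra 12 h, 0 for Ra 48 h, 1 for Di 12 h, 6 for Aa high against low at 24 h, 0 for Kbr high against low at 48 h, 9 for Ota low 72 against 24 h, 7 for the CsA controls and 0 for the Nnm and Kbr controls. The replicate block gave 16 for Nnm high 48 h, 13 for Nnm low 48 h, 8 for Kbr high 24 h, 17 and 15 for Aa high against low at 24 and 48 h, 12 and 3 for Aa 48 against 24 h (high and low), 4 for the Aa controls, 4 for Kbr high against low at 48 h and 2 for Ra 48 against 12 h, whose family is not paired. It moved no other count of members called by over 1.5 times. No filter gave 7 for Nnm low 24 h, 1 for Kbr high against low at 48 h and 1 for the Aa controls, quantile normalization 1 for Ota low 24 h, 1 for Kbr high against low at 48 h and 0 for the Nnm and Kbr controls, and the mean of probe sets 4 for Di 12 h and 1 for the Aa controls. The median cytosolic minus the median mitochondrial change became, with the mean of probe sets, 0.066 for CsA 12 h, 0.26 for Aa high 48 h, 1.17 for Ota high 24 h, -0.067 for Ota high 72 h, -0.29 for Ota low 72 h, 0.34 for CdCl 12 h and 0.43 for Di 48 h. With quantile normalization it became 0.13 for Aa high 48 h, -0.13 for Kbr high 24 h, 0.26 for Ota high 24 h, -0.0040 for Ota low 24 h, 0.087 for CdCl 12 h, 0.054 for CdCl 48 h and 0.17 for Di 48 h. Members that reversed with the mean of probe sets were EARS2 in Aa high 48 h (-0.16), YARS1 in Ota high 24 h (0.10), EPRS1 in CdCl 12 h (0.22) and Di 12 h (0.093), LARS1 in Di 12 h (0.029) and in CdCl 48 against 12 h (-0.21), and VARS1 in the CdCl and Di controls (0.054). FARSB, whose other probe sets were at background in the controls (1 of them read 5.27 with Ota high 72 h against 2.14), became 0.61 in Ota high 24 h, 0.66 in Ota high 72 h, 0.36 in Ota low 24 h, 0.25 and 0.66 for high against low dose at 24 and 72 h, and -0.092 in CdCl 48 h. EARS2 in Ota high 24 h became 0.091 with quantile normalization. The cause of these moves was not tested. With each array left out in turn, members called ranged from 4 to 7 (Aa low 24 h), 7 to 14 and 3 to 13 (Nnm high 24 and 48 h), 2 to 12 and 2 to 11 (Nnm low), 0 to 1 and 9 to 16 (Kbr low), 1 to 4 and 5 to 9 (Ota low 24 and 72 h), 0 to 16 (Ra 48 h), 3 to 7 (Di 12 h), 6 to 10 and 5 to 8 (Aa high against low at 24 and 48 h), 2 to 5 and 0 to 1 (Aa 48 against 24 h, high and low), 0 to 2 (Nnm high against low at either time, and Nnm high 48 against 24 h), 0 to 3 (Kbr high against low at 48 h), 2 to 5 (Ota low 72 against 24 h), 0 to 8 (Ra 48 against 12 h), 6 to 11 (CsA controls), 3 to 13 (Fk and Ra controls) and 0 to 1 (Nnm and Kbr controls). The difference of medians ranged from 0.064 to 0.21 (CsA 12 h), 0.26 to 0.56 (CsA 48 h), 0.31 to 0.50 (Aa high 24 h), 0.10 to 0.31 and 0.16 to 0.26 (Aa low 24 and 48 h), 0.23 to 0.46 and -0.080 to 0.23 (Nnm high 24 and 48 h), 0.020 to 0.15 and -0.22 to 0.072 (Nnm low 24 and 48 h), -0.11 to 0.082 and 0.13 to 0.50 (Kbr high), -0.079 to 0.12 and 0.22 to 0.58 (Kbr low 24 and 48 h), 0.56 to 1.18 (Ota high 24 h), -0.019 to 0.23 (Ota low 24 h), -0.067 to 0.30 (Fk 48 h), 0.24 to 0.42 and 0.090 to 0.23 (CdCl 12 and 48 h), 0.014 to 0.13 (Di 12 h) and 0.14 to 0.41 (Di 48 h). The number of arrays limits the precision of every value, and levels near background give no size for a fall.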
